A study of Mus musculus with 2 samples.

Results

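The 10 core circadian clock genes of the mouse heart are described here in 2 RNA sequencing libraries, one from a heart given a CHAPIR mimic and one from a heart given a scrambled negative control (NC) mimic. The genes are Arntl, Clock, Per1, Per2, Per3, Cry1, Cry2, Nr1d1, Nr1d2 and Dbp, taken by symbol, with every transcript listed for them. All 10 were listed, with 17 transcripts, out of 12395 genes and 23128 matched transcripts in the table. CHAPIR is a heart piRNA (PIWI-interacting RNA, a class of small RNA best known from the germline), and the study used these libraries to look for changes in gene expression when it is raised. Both animals were C57BL/6 mice with a minipump under the skin of the back for 14 days. The CHAPIR pump delivered 30 mg/kg, and no dose is given for the NC mimic in the sources used here. Age, sex and the hour of the day at which the hearts were taken are not given there either.

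Each group held 1 library, so no difference below has a replicate check, a standard error or a p-value. Values were treated as FPKM, that is, fragments per kilobase of a transcript corrected for library size. The unit was inferred from the values, as the deposited header names none. On this scale, levels of genes of different length can be set side by side. A gene's level is the sum of its listed transcripts. The log2 ratio is log2 of (CHAPIR FPKM + 1) minus log2 of (NC FPKM + 1), which shrinks the differences of low genes, and 1.5-fold thresholds are on this scale. The libraries summed to 401938 FPKM in CHAPIR and 394675 FPKM in NC. Depth is unknown, since the values gave no whole-read steps.

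The tissue label was met by its markers, as all 8 cardiomyocyte markers looked up were listed, at a sum of 19047 FPKM in the CHAPIR heart and 19901 FPKM in the NC heart. The hearts differed in other ways. All 4 Y-linked genes looked up were present in the CHAPIR heart, at a sum of 51.6 FPKM, and were all at 0 for the NC heart, the pattern of a male heart against a female one. The X-linked noncoding RNA gene Xist had no listed transcript in either heart, in a table where 23061 of the 23128 matched transcripts are protein coding, so it could not be used as a check. Apparent sex and mimic cannot be told apart. The 12 macrophage markers were all higher in the CHAPIR heart, at a sum of 308 FPKM against 184 FPKM in the NC heart. The 8 white adipocyte markers were all lower, at 445 FPKM in the CHAPIR heart, where Lep and Retn were listed at 0, against 532 FPKM in the NC heart, and Fabp4, which other heart cells also express, made up 422 FPKM in CHAPIR and 423 FPKM in NC. The 4 listed of 5 brown adipocyte markers were also lower, at 553 FPKM in the CHAPIR heart, where Ucp1 was listed at 0, against 623 FPKM in the NC heart, and Cox8b, which heart muscle also expresses, made up 532 FPKM in CHAPIR and 585 FPKM in NC. The part of these differences in the values below was not tested. In bulk tissue, fewer cells of a type and less RNA per cell cannot be told apart.

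The mammalian clock is a transcriptional feedback loop present in nearly every cell, cardiomyocytes included. The activators BMAL1 (encoded by Arntl) and CLOCK bind E-box elements and switch on the Per and Cry genes, whose proteins then repress the activators. In a second loop the nuclear receptors REV-ERB alpha and beta (Nr1d1 and Nr1d2) repress Arntl through ROR response elements (ROREs), where the ROR receptors activate. DBP, a PAR bZIP factor, is driven by E-boxes and carries the rhythm to genes with D-boxes. In tissues with a running clock, Arntl peaks at a time of day when Nr1d1, Dbp and the Per genes are low, so the levels of these genes in 1 heart depend on when it was taken.

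Sequences of these control elements are shown first, since the loops act through them. RefSeq promoter windows (GRCm38.p6, from 250 bases before to 50 after a start site, on the gene's strand, 5′ to 3′) matched 9 of the 10 genes, with 13 windows. The motifs searched on both strands were the E-box CACGTG, its variant CACGTT, the D-box TTATGTAA or TTACGTAA, the RORE ANTAGGTCA and the cyclic AMP response element TGACGTCA. Their letters do not overlap one another in the windows shown. Capitals mark the matches below. The 2 Per1 windows belong to start sites that the transcript results further on turn on, and the others hold a match of each kind found.
Per1, start of Per1-201, chr11:69098699-69098998, plus strand: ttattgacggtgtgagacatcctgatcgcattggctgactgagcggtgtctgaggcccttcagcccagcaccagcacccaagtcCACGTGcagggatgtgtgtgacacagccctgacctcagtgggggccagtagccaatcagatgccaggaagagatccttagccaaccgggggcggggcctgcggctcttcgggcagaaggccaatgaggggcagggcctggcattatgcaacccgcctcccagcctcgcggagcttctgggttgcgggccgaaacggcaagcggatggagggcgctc
Per1, start of Per1-206, chr11:69099902-69100201, plus strand: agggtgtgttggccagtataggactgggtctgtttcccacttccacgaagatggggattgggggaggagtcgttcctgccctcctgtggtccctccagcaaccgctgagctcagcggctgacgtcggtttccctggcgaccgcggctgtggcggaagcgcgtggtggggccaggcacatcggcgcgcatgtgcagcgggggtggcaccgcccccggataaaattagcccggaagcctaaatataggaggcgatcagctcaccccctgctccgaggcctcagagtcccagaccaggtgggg
Cry1, chr10:85185005-85185304, minus strand: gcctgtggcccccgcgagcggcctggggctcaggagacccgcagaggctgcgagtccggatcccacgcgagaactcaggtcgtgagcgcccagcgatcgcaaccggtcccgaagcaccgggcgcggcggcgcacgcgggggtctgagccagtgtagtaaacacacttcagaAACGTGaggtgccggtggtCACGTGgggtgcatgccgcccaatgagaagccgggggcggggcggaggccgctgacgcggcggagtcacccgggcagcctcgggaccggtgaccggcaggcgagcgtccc
Nr1d1, chr11:98775328-98775627, minus strand: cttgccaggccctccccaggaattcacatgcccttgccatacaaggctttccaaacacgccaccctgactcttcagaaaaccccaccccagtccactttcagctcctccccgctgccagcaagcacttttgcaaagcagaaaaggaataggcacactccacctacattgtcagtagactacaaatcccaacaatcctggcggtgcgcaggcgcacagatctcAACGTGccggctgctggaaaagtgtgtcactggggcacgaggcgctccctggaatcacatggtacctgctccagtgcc
Per3, chr4:151044616-151044915, minus strand: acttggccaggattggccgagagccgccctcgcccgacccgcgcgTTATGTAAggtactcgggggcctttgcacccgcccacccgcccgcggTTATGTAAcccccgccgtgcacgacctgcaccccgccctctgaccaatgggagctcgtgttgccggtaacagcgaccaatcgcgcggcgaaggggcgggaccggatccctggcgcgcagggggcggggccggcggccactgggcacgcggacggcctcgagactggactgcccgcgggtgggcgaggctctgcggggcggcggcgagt
Arntl, chr7:113207261-113207560, plus strand: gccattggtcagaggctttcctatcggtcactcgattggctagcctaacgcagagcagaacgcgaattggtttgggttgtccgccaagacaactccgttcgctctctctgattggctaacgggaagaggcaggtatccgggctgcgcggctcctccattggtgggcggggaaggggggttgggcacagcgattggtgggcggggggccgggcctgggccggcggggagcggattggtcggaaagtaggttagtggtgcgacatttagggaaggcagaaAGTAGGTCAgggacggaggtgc

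The E-box was in 2 of the 13 windows, those of Cry1 and of the upstream start of Per1, and in 7.15% of the 32851 windows of all genes. In Per1 it began 166 bases before the start site of Per1-201, and the window at the start of Per1-206 held none of the letters searched. The variant CACGTT was in the windows of Cry1, Cry2 and Nr1d1, 3 of 13, against 4.68% of all windows. D-boxes 158 and 205 bases before the start made Per3 the 1 gene of the 9 with that motif, which 1.06% of all windows hold. A RORE began 29 bases after the second RefSeq start site of Arntl, and 0.661% of all windows hold one. The cyclic AMP element was in 0 of the 13 windows and in 1.79% of all. The member windows had a median GC content of 64.7% (range 47.0% to 76.7%), against 52.7% over all windows. A match is a description of these letters only.

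No core clock gene differed by 1.5-fold between the hearts. Of the 10 genes, 0 were 1.5-fold higher and 0 were 1.5-fold lower in the CHAPIR heart, where 6.81% of the 11416 genes tested (those that reached 1 FPKM in either library) were higher and 3.85% lower. Log2 ratios lay between -0.19 (Per3) and 0.36 (Nr1d1), with 7 positive and 3 negative. Their median was 0.050 and the median of their absolute values 0.13, against 0.0053 and 0.16 over all genes tested. Over all genes 10.7% were past 1.5-fold in either direction, so a count of 0 among 10 lies near the background.

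**Figure D1:**
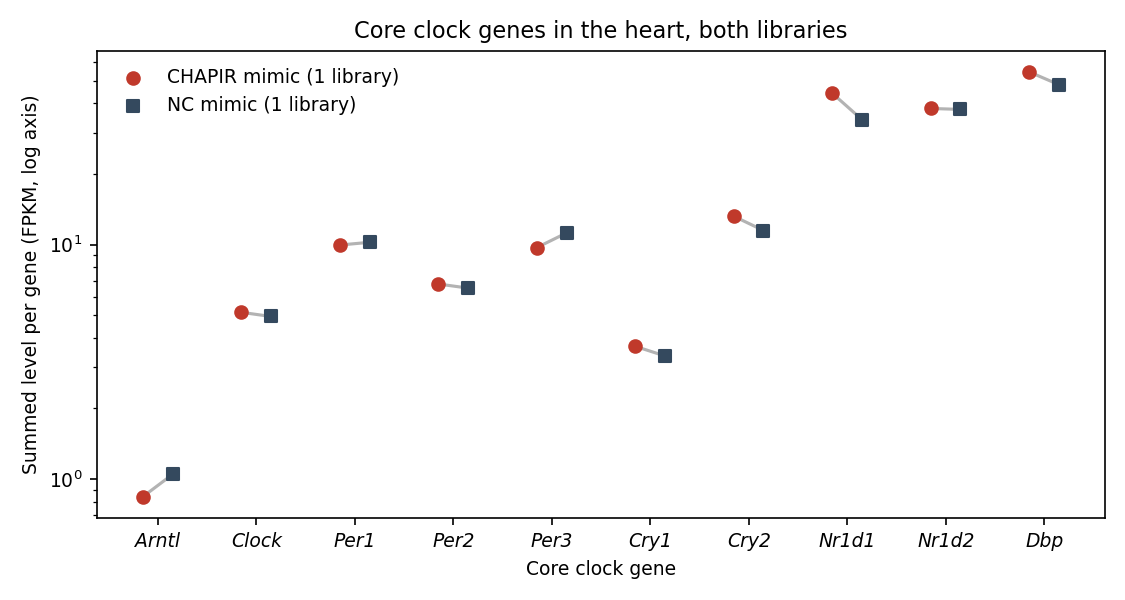
Level of each core clock gene (vertical axis, FPKM, logarithmic) in the CHAPIR heart (circles) and the NC heart (squares), with a line joining the 2 values of a gene. Dbp was highest, at 54.5 FPKM in CHAPIR and 48.1 FPKM in NC, and Arntl lowest, at 0.841 and 1.05 FPKM in the same order.

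Of the activators, Arntl was low and Clock was in the middle of all gene levels. Arntl (ENSMUSG00000055116.8, chr7:113207465-113314126), which encodes BMAL1, was at 0.841 FPKM in the CHAPIR heart and 1.05 FPKM in the NC heart, a log2 ratio of -0.15. It stood at the percentile 8.20 of all 12395 gene levels in the CHAPIR heart and 12.1 in the NC heart, close to the lowest level the table lists, since no transcript had a higher value under 0.5 FPKM. Clock (ENSMUSG00000029238.11, chr5:76209868-76304792), its partner, was at 5.14 FPKM in the CHAPIR heart and 4.94 FPKM in the NC heart, a log2 ratio of 0.049, at the percentiles 45.98 and 45.9 of all gene levels in the same order. Clock was thus 6.11 times the Arntl level in the CHAPIR heart and 4.71 times in the NC heart. Npas2, a paralog that can take the place of CLOCK, was at 0.552 FPKM in CHAPIR and 0.554 FPKM in NC, under the level at which genes were tested, as was Arntl2, a paralog of Arntl, at 0.190 FPKM in CHAPIR and 0.522 FPKM in NC.

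The Period genes encode the repressors PER1, PER2 and PER3. Per1 (ENSMUSG00000020893.17, chr11:69095217-69109960) was at 9.96 FPKM in the CHAPIR heart and 10.2 FPKM in the NC heart, a log2 ratio of -0.035. Per2 (ENSMUSG00000055866.9, chr1:91415982-91459324) was at 6.79 FPKM in CHAPIR and 6.52 FPKM in NC, a log2 ratio of 0.050. Per3 (ENSMUSG00000028957.12, chr4:151003652-151044665), the gene with paired D-boxes above, was at 9.72 FPKM in CHAPIR and 11.2 FPKM in NC, the lowest log2 ratio of the 10 at -0.19. Per1 and Per3, neighbours in level, stood in opposite order in the 2 libraries.

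The cryptochromes are the partners of the PER proteins in the repressor complex. Cry2 (ENSMUSG00000068742.11, chr2:92403646-92434043) was at 13.2 FPKM in the CHAPIR heart and 11.5 FPKM in the NC heart, a log2 ratio of 0.19. Cry1 (ENSMUSG00000020038.10, chr10:85131700-85185064), which has both an E-box and its variant in the window shown, was at 3.68 FPKM in CHAPIR and 3.35 FPKM in NC, a log2 ratio of 0.11. The Cry2 level was 3.59 times that of Cry1 in CHAPIR and 3.43 times in NC. Over the 5 Per and Cry genes the median log2 ratio was 0.050.

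Levels were highest for the REV-ERB genes and Dbp. Nr1d1 (ENSMUSG00000020889.11, chr11:98767932-98775333) was at 44.2 FPKM in the CHAPIR heart and 34.1 FPKM in the NC heart. Its log2 ratio of 0.36 was the largest of the 10 in size, and 21.7% of all genes tested differed by as much or more in either direction. Nr1d2 (ENSMUSG00000021775.11, chr14:18204054-18239127), which overlaps Nr1d1 in function, was at 38.1 FPKM in CHAPIR and 37.7 FPKM in NC, a log2 ratio of 0.013. The level of Nr1d1 was therefore 1.16 times that of Nr1d2 in the CHAPIR heart and 0.904 times in the NC heart, and these neighbours in the order changed places. Dbp (ENSMUSG00000059824.12, chr7:45705088-45710203) was at 54.5 FPKM in CHAPIR and 48.1 FPKM in NC, a log2 ratio of 0.18, at the percentiles 93.9 and 92.8 of all gene levels in the same order.

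The hearts thus shared a profile of high REV-ERB and Dbp with low Arntl. Dbp was at 64.8 times the Arntl level in the CHAPIR heart and 45.96 times in the NC heart, and Nr1d1 at 52.5 times in CHAPIR and 32.6 times in NC. Since Arntl stood near the lowest listed level, small differences in it move these ratios. The order of the 10 genes by level was the same in both libraries except for the neighbour pairs Nr1d1 and Nr1d2, and Per1 and Per3.

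**Figure D2:**
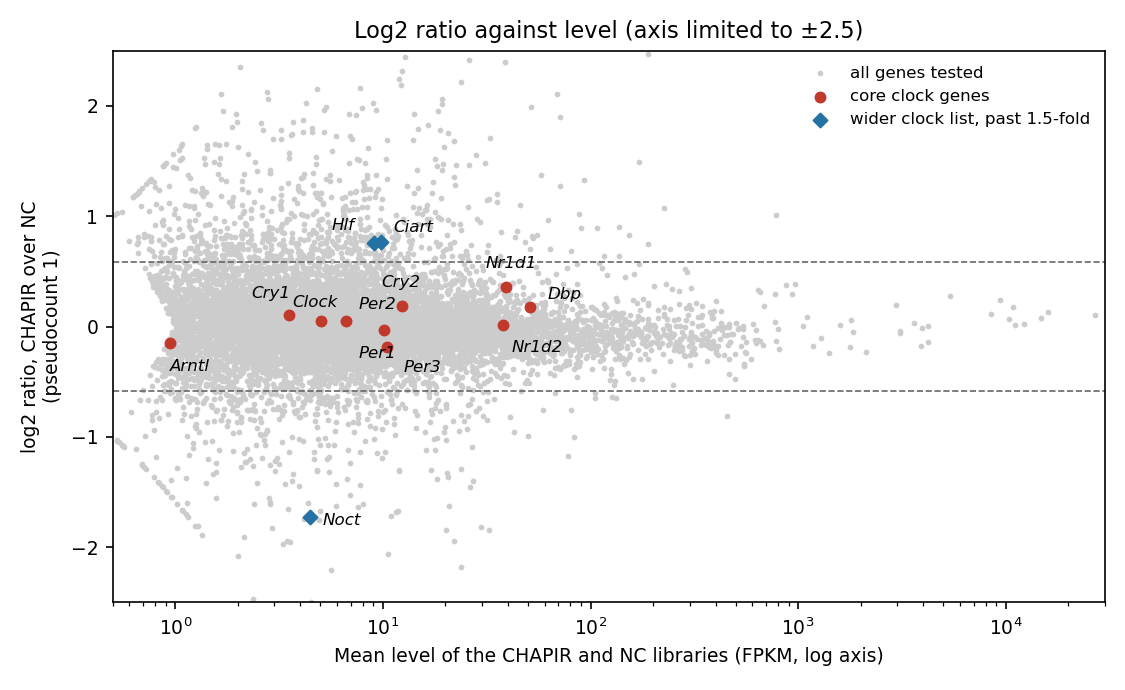
Log2 ratio of CHAPIR over NC (vertical axis) against the mean level of both libraries (horizontal axis, FPKM, logarithmic) for the 11416 genes tested (grey), the core clock genes (red circles) and the 3 genes of the wider clock list past 1.5-fold (blue diamonds), with dashed lines at 1.5-fold. The 10 core genes lie between -0.19 and 0.36, inside the dashed lines, while Hlf and Ciart lie above them and Noct below.

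At the level of single transcripts the libraries were less alike, most of all for Per1. Its 3 listed transcripts differ in their first exons. Per1-206 (ENSMUST00000166748.7, 23 exons) was at 5.78 FPKM in the CHAPIR heart and listed at 0 in the NC heart. Per1-201 (ENSMUST00000021271.13, 23 exons) was at 2.13 FPKM in CHAPIR and 5.11 FPKM in NC, a log2 ratio of -0.97. Per1-202 (ENSMUST00000101004.8, 18 exons, ending before the last exons of the others) was at 2.05 FPKM in CHAPIR and 5.12 FPKM in NC, a log2 ratio of -1.003. Per1-206 made up 58.0% of the summed Per1 level in CHAPIR and 0% in NC, and the gene sum hid this difference.

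**Figure D3:**
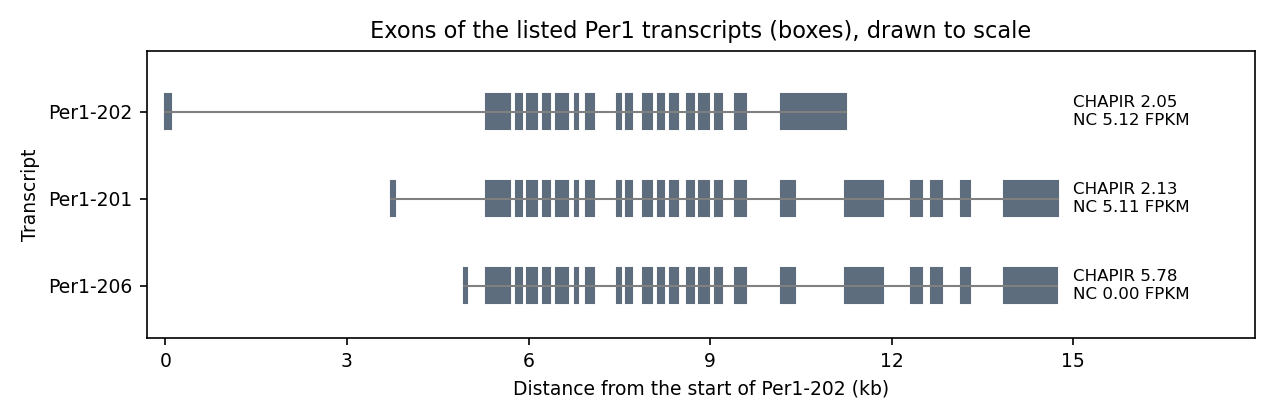
Exons (boxes) of the 3 listed Per1 transcripts by distance from the start of Per1-202 (horizontal axis, kb), with the level of each transcript in FPKM at the right. The transcripts start at different first exons, and Per1-206, whose start lies 1210 bases downstream of that of Per1-201, was at 5.78 FPKM in CHAPIR and listed at 0 in NC.

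Per1-201 and Per1-206 share the same 3873 coding bases and encode the same full-length protein. They have 4598 exonic bases in common, and 73 bases of Per1-201 and 38 bases of Per1-206 are not in the other, so the division of reads between them rests on the ends of the transcripts. Their start sites are those of the 2 Per1 windows printed above, of which the upstream one holds the E-box. Summed, this pair was at 7.91 FPKM in CHAPIR and 5.11 FPKM in NC, a log2 ratio of 0.54. An exact 0 can be a failed estimate, and no fold is given for Per1-206. Of the 5619 tested genes with 2 or more listed transcripts, 22.8% had 1 transcript 1.5-fold higher and another 1.5-fold lower with a gene sum inside 1.5-fold. Among the 4 core genes with several listed transcripts, Per1 was the 1 with this pattern, which is common in the table. In Per1 the higher transcript is Per1-206, so the pattern there rests on its listed 0 in NC.

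The other genes with several listed transcripts were Clock, Cry2 and Dbp. Clock-205 (ENSMUST00000202651.3), with the longest listed transcript of the gene at 9744 bases, was at 1.55 FPKM in the CHAPIR heart and 0.619 FPKM in the NC heart, a log2 ratio of 0.65. Clock-201 (ENSMUST00000075159.4), with the same coding sequence, was at 2.40 FPKM in CHAPIR and 2.16 FPKM in NC. Clock-204 (ENSMUST00000202122.1) was at 1.20 FPKM in CHAPIR and 2.16 FPKM in NC, a log2 ratio of -0.52, and has no exonic base that the other listed transcripts lack. Cry2-202 (ENSMUST00000111278.1), a minor form with the coding sequence of Cry2-201, was at 1.51 FPKM in CHAPIR and 0.361 FPKM in NC, a log2 ratio of 0.88, and made up 11.4% of Cry2 in CHAPIR and 3.14% in NC. Cry2-201 (ENSMUST00000090559.11) was at 11.7 FPKM in CHAPIR and 11.1 FPKM in NC. Clock-205 and Cry2-202 thus passed 1.5-fold, while Clock-201 and Cry2-201, the most abundant transcript of each gene, had log2 ratios of 0.10 and 0.066.

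Dbp was carried by 1 transcript in both hearts. Dbp-201 (ENSMUST00000080885.11), which encodes the longest of the 3 listed open reading frames at 975 coding bases, was at 43.8 FPKM in the CHAPIR heart and 37.0 FPKM in the NC heart and made up 80.4% of Dbp in CHAPIR and 77.0% in NC. Dbp-203 (ENSMUST00000211357.1) was at 7.24 FPKM in CHAPIR and 5.64 FPKM in NC, and Dbp-204 (ENSMUST00000211513.1) at 3.43 FPKM in CHAPIR and 5.44 FPKM in NC, a log2 ratio of -0.54. Neither Dbp-203 nor Dbp-204 has an exonic base that the other listed transcripts lack, so their separate values are uncertain. Across the 17 transcripts, 3 were 1.5-fold higher (Per1-206, Clock-205 and Cry2-202) and 2 lower (Per1-201 and Per1-202), where 16.3% of the 23128 matched transcripts were higher and 14.7% lower, shares near those of the 17. The call of Per1-206 as higher rests on its listed 0 in NC, which the pseudocount of 1 allows to be counted. The call of Per1-201 as lower depends on the division of reads between it and Per1-206. Their sum was not lower, at 7.91 FPKM in CHAPIR and 5.11 FPKM in NC. The annotation holds 44 transcripts of these genes, and the others were not analysed here.

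**Figure D4:**
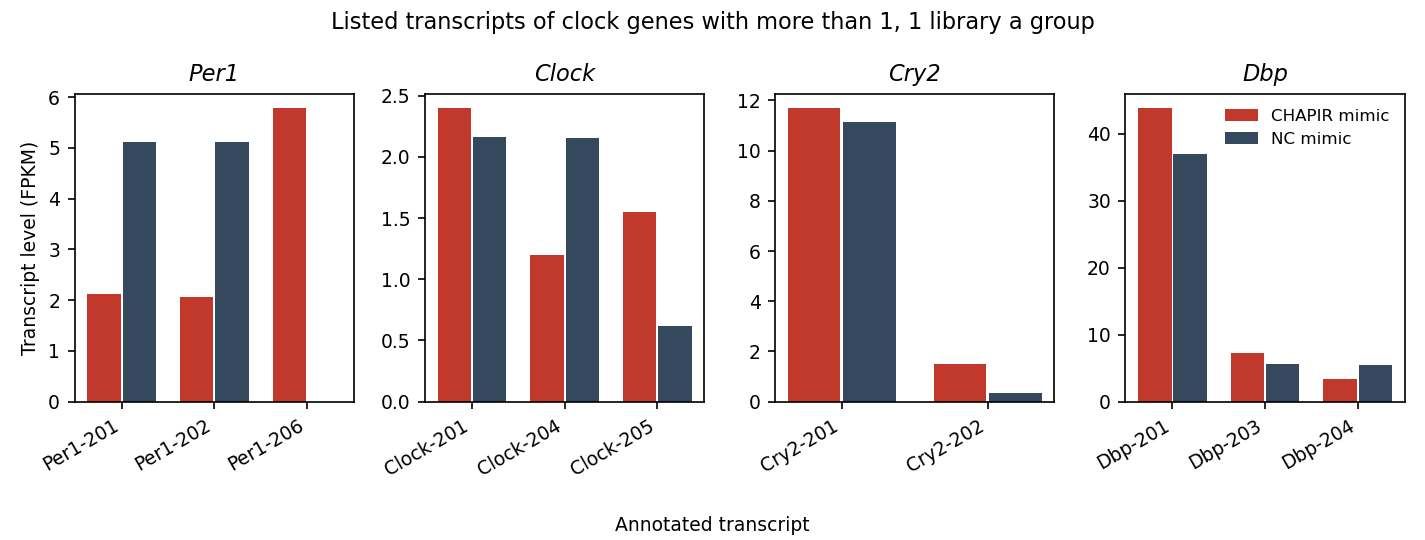
Level (vertical axis, FPKM, a scale of its own for each gene) of each listed transcript of Per1, Clock, Cry2 and Dbp in the CHAPIR heart (left bar) and the NC heart (right bar). Per1-206 has no bar in NC, while Cry2-201 and Dbp-201, the main transcripts of their genes, have similar bars in both.

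Around the core genes, a wider list of clock modifiers, interlocking receptors and outputs held 37 genes, of which 35 were listed and 33 tested. Of these, 2 were 1.5-fold higher and 1 lower in the CHAPIR heart, beside the 6.81% and 3.85% of all genes given above, and the median log2 ratio was 0.070 against 0.0053 over all genes. The higher ones were Ciart, whose product (also called CHRONO) represses BMAL1 and CLOCK, and Hlf, a PAR bZIP factor like DBP. The lower one was Noct, which encodes nocturnin, a rhythmic protein of the deadenylase family.

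Ciart was at 12.5 FPKM in the CHAPIR heart and 6.97 FPKM in the NC heart, a log2 ratio of 0.77. Its window holds 3 E-boxes, the most among the 9 core genes with a window and the 4 others searched (Ciart, Hlf, Noct and Tef). Each Tef window holds 1 E-box, and the Hlf and Noct windows hold 0. Whether E-boxes bear on the ratios of these genes was not tested. The Ciart window is printed for its E-box count.
Ciart, chr3:95882179-95882478, minus strand: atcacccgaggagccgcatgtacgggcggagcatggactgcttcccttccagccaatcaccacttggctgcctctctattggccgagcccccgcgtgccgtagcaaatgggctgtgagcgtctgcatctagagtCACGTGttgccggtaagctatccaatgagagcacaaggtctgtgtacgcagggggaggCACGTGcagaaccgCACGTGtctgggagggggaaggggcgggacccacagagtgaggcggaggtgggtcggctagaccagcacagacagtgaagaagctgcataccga
Of the 6 listed Ciart transcripts, Ciart-201 was at 5.69 FPKM in CHAPIR and 3.595 FPKM in NC, and Ciart-202 at 3.69 FPKM in CHAPIR and 1.20 FPKM in NC. Ciart-203 and Ciart-204 were at 0.757 and 1.19 FPKM in CHAPIR and were both listed at 0 in NC. Ciart-205 was at 1.21 FPKM in CHAPIR and 1.08 FPKM in NC. Ciart-206 went the other way, listed at 0 in CHAPIR and at 1.09 FPKM in NC. An exact 0 can be a failed estimate, so part of the gene's difference is uncertain.

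Hlf was at 11.6 FPKM in the CHAPIR heart and 6.45 FPKM in the NC heart, a log2 ratio of 0.76, from 1 listed transcript. The third PAR bZIP gene, Tef, was at 39.5 FPKM in CHAPIR and 46.5 FPKM in NC, a log2 ratio of -0.23, so the ratios of the 3 family members had both signs. Nfil3, whose product competes with the PAR bZIP factors at D-boxes, was at 3.31 FPKM in CHAPIR and 3.52 FPKM in NC. Noct was at 1.53 FPKM in the CHAPIR heart and 7.37 FPKM in the NC heart, a log2 ratio of -1.72. Nearly all of that lay in Noct-201, at 0.861 FPKM in CHAPIR and 7.045 FPKM in NC, while Noct-202 was at 0.671 FPKM in CHAPIR and 0.324 FPKM in NC.

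Rora, whose product opposes the REV-ERBs at ROREs, was at 5.62 FPKM in the CHAPIR heart and 5.40 FPKM in the NC heart, a log2 ratio of 0.049. Rorb and Fbxl21 had no listed transcript. The E-box repressor genes Bhlhe40 and Bhlhe41 were at 27.3 FPKM in CHAPIR and 23.96 FPKM in NC, and at 10.1 FPKM in CHAPIR and 9.44 FPKM in NC. The kinase genes Csnk1d and Csnk1e, whose products phosphorylate PER proteins, had log2 ratios of 0.070 and -0.12.

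**Figure D5:**
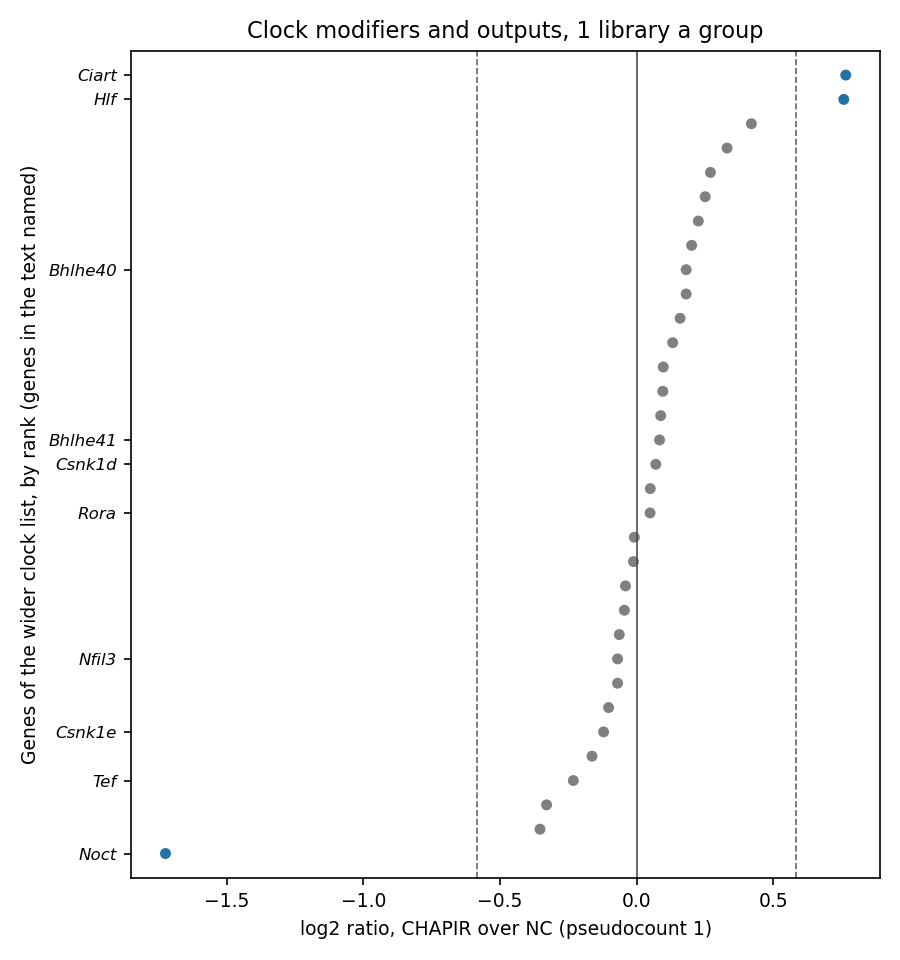
Log2 ratio of CHAPIR over NC (horizontal axis) for the 33 tested genes of the wider clock list, ordered from highest at the top to lowest, with dashed lines at 1.5-fold and names beside the genes given in the text. Ciart (0.77) and Hlf (0.76) lie past the line on the higher side, and Noct (-1.72) on the lower side.

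A list of 30 genes known for daily rhythms in the heart or in many mouse tissues, with Per1, Nampt and Noct shared with the lists above, was looked up in the same way. Of its 28 tested members, 1 was 1.5-fold higher and 3 were lower, beside 6.81% higher and 3.85% lower over all genes, with a median log2 ratio of -0.0011, whose sign changed with the scaling. Fkbp5, a chaperone gene driven by glucocorticoids, was the higher one, at 6.70 FPKM in the CHAPIR heart and 3.07 FPKM in the NC heart, a log2 ratio of 0.92. Pdk4, a kinase gene of fuel choice, was next, at 139 FPKM in CHAPIR and 101 FPKM in NC, a log2 ratio of 0.46. The lower ones were Noct, Alas1 and Cirbp. Alas1, the first enzyme gene of heme synthesis, was at 12.6 FPKM in CHAPIR and 46.8 FPKM in NC, a log2 ratio of -1.81. This rested on Alas1-201, which was listed at 0 in CHAPIR, where an exact 0 can be a failed estimate, and at 38.9 FPKM in NC. Alas1-207 went the other way, at 12.04 FPKM in CHAPIR and 3.45 FPKM in NC.

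Cirbp, which encodes a cold-inducible RNA-binding protein that follows body temperature, was at 16.7 FPKM in the CHAPIR heart and 36.8 FPKM in the NC heart, a log2 ratio of -1.09, from 1 listed transcript. Its relative Rbm3 was at 39.9 FPKM in CHAPIR and 57.2 FPKM in NC, a log2 ratio of -0.51. In Rbm3 the difference lay in Rbm3-204, at 1.55 FPKM in CHAPIR and 27.1 FPKM in NC, while the other 4 listed transcripts had log2 ratios between -0.14 and 0.95, and the most abundant of them, Rbm3-203, was at 17.9 FPKM in CHAPIR and 13.3 FPKM in NC. The cardiac channel genes Kcnip2 and Kcnh2, which have daily rhythms in mouse heart, had log2 ratios of -0.055 and -0.12. Klf15, a clock-driven regulator of cardiac metabolism, was at 15.13 FPKM in CHAPIR and 17.4 FPKM in NC.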

How the data were processed

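The deposited table holds 1 value per Ensembl transcript for each of the 2 libraries, treated here as FPKM made by the authors. The table header names no unit, which was inferred from the values, and TPM would change each ratio by 1 constant factor per library. Per the submitters' processing notes, cutadapt, HISAT2 2.0.5, StringTie, STAR 2.5.2b and GRCm38 were used, without their roles. The authors' annotation is not given in the labels. No transcript listed was below 0.5 in both libraries, and lower ones were not analysed here. Of 23178 rows, 23128 matched GENCODE M21 by identifier without version (21972 with the same version), and 50 did not. Coordinates of genes follow that release, counted from 1. The labels do not say how reads were divided between overlapping transcripts, so single-transcript values are uncertain.

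No test was possible with 1 library per group. Levels were compared with a pseudocount of 1 (Python 3.11.15, numpy 2.4.6, pandas 2.3.3). The code of the fold calls was run on simulated levels with changes well past the threshold and little noise. That run checked the code only and gives no error rate for the calls here. Members and lists were chosen with earlier results of these data known. The genes named are the 10 core genes, members of the lists past 1.5-fold and the clock roles. The other list members named are examples chosen after their values were seen. Older symbols in the lists (Chrono and Ccrn4l) were read as Ciart and Noct. Some single-gene values under this rule are left out.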

Additional observations from a re-analysis of the deposited data

How the results depend on the processing

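No paired analysis was possible because there was 1 library per group, and none could be left out. With depth unknown, no limit from it can be given. Each of the 10 core genes kept the sign of its log2 ratio in all 6 settings in which its value was recomputed (2 other pseudocounts, centring, quantile normalization, rescaling and the most abundant transcript). With gene sums none reached 1.5-fold. With the most abundant transcript, 1 core gene was 1.5-fold lower, Per1 at -0.97, because only its transcript with the highest mean was then read. In that setting 3 genes of the wider list were lower, 2 of the heart outputs higher, and 1206 of all genes higher and 848 lower. At a pseudocount of 0.1, 4 core transcripts and 692 of all genes were lower. At a pseudocount of 5, core transcripts had 1 higher and 0 lower, the wider list 0 higher, the heart outputs 0 higher, and all genes 271 higher and 137 lower. At a mean of at least 5 FPKM the wider list had 0 lower and the heart outputs 0 higher, with 345 higher and 173 lower of all genes, where fewer genes were tested. Noct was at -2.19 with a pseudocount of 0.1 and -0.92 with 5. Of all values of single genes, transcripts and roles, 525 moved by less than the SD of the 500 genes or transcripts of like level and 16 by more.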
